A study of Rhinolophus ferrumequinum with 8 samples.

Results

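The spleen of greater horseshoe bats in torpor was compared with that of summer active bats, gene by gene, from 4 of the 8 libraries of a series on hibernation. The 4 libraries were chosen by the state named in their labels: torpor 1 and 2, and summer active 1 and 2. All were made from total RNA of the entire spleen of wild female Rhinolophus ferrumequinum, with 2 biological replicates a state. Summer active bats were taken in July and torpid bats in November, so season and torpor differ together between them and cannot be told apart here. The other 4 libraries came from November bats during arousal, 2 h after capture, and in the winter active state, 26 h after capture. These rewarmed animals served only to show where a torpor level lay relative to the rest of November. The sources used here give no ages, and no genotype or agent is named for any group.

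Torpor is the phase of hibernation in which body temperature, heart rate and metabolic rate are held far below those of an active animal. The spleen filters blood, removes ageing red cells and recycles their iron in its red pulp, and in its white pulp holds follicles of B cells and zones of T cells. In many small mammals it also makes red cells, and in several hibernators lymphocytes leave the circulation in torpor and return on rewarming.

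The table held 19652 genes, of which 13542 had an 8-library mean of at least 1 and were tested. Values are rescaled TPM (transcripts per fixed total of transcripts, adjusted between libraries before deposit), so they can be compared between libraries but not as counts, and the depth behind each is unknown. Differences are torpor minus summer active in log2(value + 1), a scale on which changes of low genes look smaller than they are. A gene rose or fell where limma, fitted over all 8 libraries and all tested genes, gave a Benjamini-Hochberg adjusted p under 0.05. The labels call the replicates biological but do not say that each library came from 1 animal, so the p-values measure the spread between these libraries. Spleen markers were present: CD79A, a B-cell receptor chain, stood at 759.8 and 1071 in summer and 296 and 364 in torpor, and VCAM1, an adhesion molecule of red pulp macrophages, at 915 and 521 in summer and 1562 and 1274 in torpor.

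Some libraries stood apart before any test. The summer pair correlated at r = 0.915 over log2 values of the tested genes, a description across genes, and the torpor pair at 0.959. Torpor libraries correlated with summer libraries at 0.886 to 0.943, so the highest value between the states exceeded that of the summer pair. Summer active 2 was lowest of the 8 libraries in the macrophage, platelet and iron handling lists, and torpor 1 was far above the others in neutrophil and monocyte genes. Pancreatic, hepatocyte and epithelial genes were present in uneven amounts, and their values are given beside the results they touch. The summer columns summed to 1276851 and 1331819.8 and the torpor columns to 986814 and 998271. The pair of highest genes, known by locus number only, made up 18.9% and 19.9% of the summer columns and 1.41% and 1.93% of the torpor columns. Setting every column to a total of 1000000 moved the median of all genes from -0.055 to 0.28 on the log2 scale, so a small rise or fall depends on that choice.

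In torpor 76 genes passed the test, 0.561% of those tested: 10 rose (0.0738%) and 66 fell (0.487%). After setting the columns to equal totals, 20 rose and 36 fell. Genes of red blood cells made up a large share of the falls, 23 of 66. The anion exchanger SLC4A1 gives their scale, at 174 and 296 in summer against 0.423 and 0.428 in torpor (log2 difference -7.32, SE 0.44, adjusted p = 0.0020). Outside that red cell list 43 genes fell, of which 34 carry a symbol and 9 only a locus number. The 6 rises with a symbol were H1-4, CLPSL2, STEAP1, STAG3, STING1 and LPCAT2. All 76 had both libraries of one state above both of the other, an order that a small p in these same libraries favours. Of all tested genes, 20.4% were higher in torpor without overlap and 26.0% lower. The 76 became 9 without torpor 2, 21 without summer active 2, 31 without torpor 1 and 312 without summer active 1. Without arousal 1 the count was 50, and without either winter active library it was 35.

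**Figure D1:**
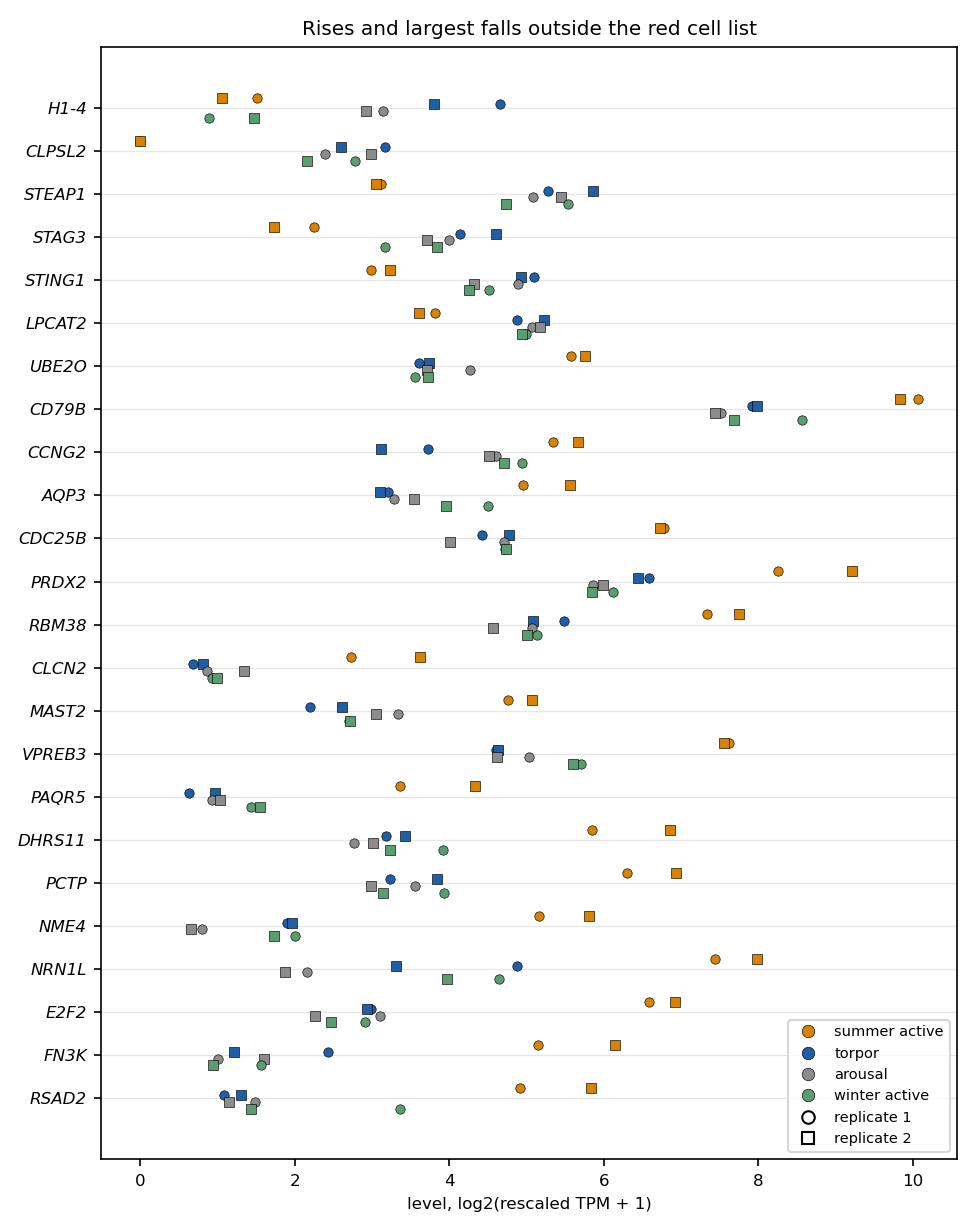
Level of each gene in each of the 8 libraries, on the horizontal axis as log2(rescaled TPM + 1), for the 6 rises with a symbol and 18 of the 20 largest falls with a symbol outside the red cell list. Orange is summer active, blue torpor, grey arousal and green winter active; circles are replicate 1 and squares replicate 2. By the rule that chose the genes, both blue points of each row lie on one side of both orange points. VPREB3 had 196 and 188 in summer and 23.4 and 23.8 in torpor before the log.

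B-cell genes were lower in torpor. VPREB3 (NCBI gene 117017614), a partner of the surrogate light chain in developing B cells, stood at 196 and 188 in the summer libraries and at 23.4 and 23.8 in the torpor libraries. The values within each state were close to each other and the states were far apart. VPREB3 fell (log2 difference -2.97, SE 0.20, adjusted p = 0.00218), and its call held in all 20 alternatives tried. CD79B (NCBI gene 117013901), the signalling chain of the B-cell receptor, stood at 1074 and 916 against 240.5 and 252 and fell too (log2 difference -2.01, SE 0.29, adjusted p = 0.0411). Its call was lost in 13 of 20 alternatives, where the adjusted p reached 0.214. In whole spleen, fewer cells of a type and less RNA per cell cannot be told apart.

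The list of B-cell identity and receptor genes had 27 members tested, of which 23 were lower in torpor and 2, VPREB3 and CD79B, fell. Its median difference was -1.19, against -0.055 over all genes tested. Without overlap between the states, 16 of 27 were lower and 2 higher, against 26.0% and 20.4% of all genes. MS4A1, the surface protein CD20, stood at 187 and 416 in summer against 89.2 and 48.2 in torpor, and PAX5, the factor that fixes B-cell identity, at 15.2 and 24.1 against 3.22 and 5.36. Neither passed (adjusted p = 0.102 and 0.102). CD79A, the other signalling chain, stood at the levels given above (log2 difference -1.46, adjusted p = 0.108). The transcription factor SPIB stood at 90.1 and 105 against 32.5 and 41.2 (log2 difference -1.38, adjusted p = 0.0685).

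Germinal centres are the sites in follicles where B cells divide and mutate their antibody genes. The germinal centre list had 15 members tested, 13 of them lower, with a median of -1.53, and 1 member fell by limma. At an unadjusted p under 0.05, 10 were lower and 1 higher, against 9.71% and 6.28% of all genes. GCSAM, a signalling protein of germinal centre B cells, stood at 29.8 and 83.5 against 6.16 and 5.93, and MEF2B, a factor that drives BCL6, at 34.9 and 71.4 against 9.49 and 10.7. These did not pass (adjusted p = 0.0596 and 0.0829). BCL6, the master regulator of the germinal centre, was one of the 2 members with a higher value in torpor, at 44.3 and 58.96 against 31.3 and 26.7 (adjusted p = 0.231). Without summer active 2 the list median was -0.80, with 12 of 15 lower and none passing. That library had the higher value of GCSAM and MEF2B.

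Antibody-secreting cells showed another pattern from the B-cell list. Of 17 plasma cell genes tested 10 were higher and 7 lower, with a median of 0.41, and none passed by limma. At an unadjusted p under 0.05, 3 were higher and 1 lower, against 6.28% and 9.71% of all genes. JCHAIN, which joins antibody units, stood at 359 and 1065 in summer and 1338 and 1611 in torpor, and XBP1, the factor behind the secretory machinery, at 118 and 111 against 208 and 214 (adjusted p = 0.273 and 0.134). TENT5C, which lengthens the tails of antibody messages, lay the other way at 28.3 and 35.4 against 9.92 and 10.1 (log2 difference -1.57, adjusted p = 0.0541). Without summer active 1 the list median was 0.16, and without torpor 1 it was 0.26.

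Every one of the 24 T-cell genes tested had a lower mean in torpor, with a median of -0.65 and a range of -1.55 to -0.12. None passed by limma (6 lower and 0 higher at an unadjusted p under 0.05, against 9.71% and 6.28% of all genes), while 18 lay lower without overlap, against 26.0% of all genes. CD5, a brake on T-cell receptor signalling, stood at 24.9 and 32.1 against 14.2 and 9.90, and ICOS, a co-stimulator of follicular helper T cells, at 7.73 and 21.5 against 4.00 and 3.58 (adjusted p = 0.139 and 0.164). The fit with equal column totals left 19 of 24 lower, and leaving out torpor 2 left 21. Cytotoxic lymphocyte genes did not share this order: 7 of 20 were higher and 13 lower, with a median of -0.28 that turned to 0.061 with equal column totals and 0.09 without torpor 2, was -0.65 without torpor 1 and was -0.16 without summer active 1. GNLY, a granule protein that breaks microbial membranes, stood highest in torpor at 38.9 and 28.1, with 9.46 and 6.37 in summer and 4.45 to 10.5 in the 4 rewarmed libraries. It missed the threshold against summer (log2 difference 1.96, adjusted p = 0.0581) and against the rewarmed states (2.10, adjusted p = 0.0987).

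**Figure D2:**
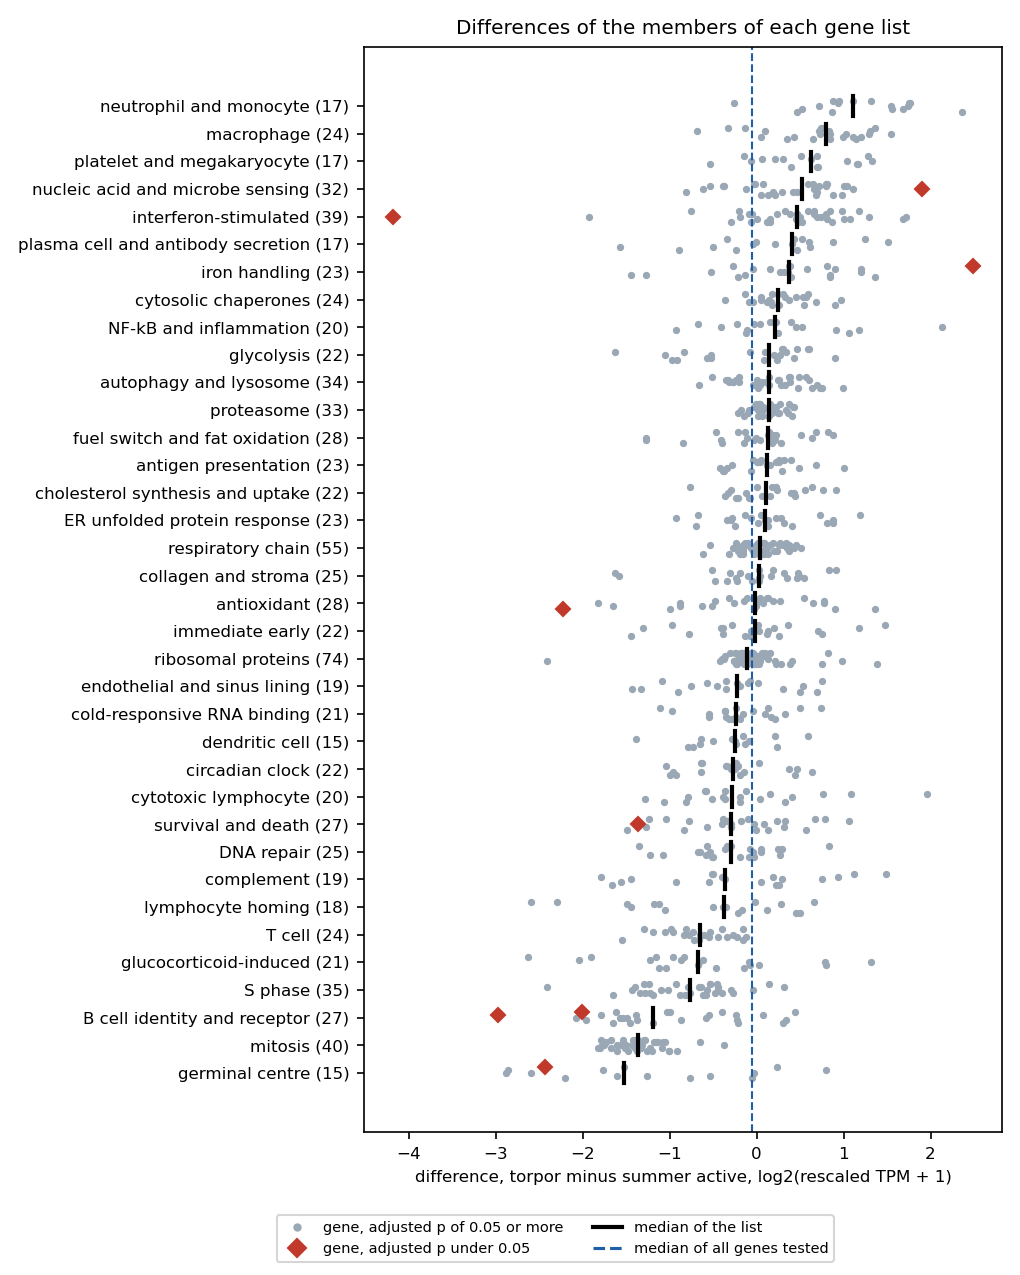
Difference between torpor and summer active, in log2(rescaled TPM + 1), for each tested member of the gene lists with 5 or more members tested, outside red cells and other tissues; the number of members is in parentheses. Red diamonds passed the test, black bars are list medians and the dashed line is the median of all genes. Germinal centre, mitosis and B-cell lists lie farthest to the left, with medians of -1.53, -1.37 and -1.19, and neutrophil and macrophage lists farthest to the right, at 1.11 and 0.79.

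Genes of cell division were lower in torpor as a group, and 3 regulators of the cycle passed singly. E2F2 (NCBI gene 117027190), a transcription factor of the step into S phase, stood at 94.8 and 121 in summer against 6.93 and 6.66 in torpor and 3.79 to 7.57 in the rewarmed libraries. All 6 November values lay below both summer values. E2F2 fell (log2 difference -3.79, SE 0.32, adjusted p = 0.00480), and its call was lost in 2 of 20 alternatives, those without summer active 2 and without torpor 2. CDC25B, a phosphatase that starts mitosis, stood at 109 and 105 against 20.5 and 26.4 and fell (log2 difference -2.15, SE 0.27, adjusted p = 0.0229). The cyclin relative CCNG2, which is linked to leaving the cycle, fell as well, from 39.8 and 49.7 to 12.2 and 7.66 (log2 difference -2.09, SE 0.26, adjusted p = 0.0229).

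None of the 40 mitosis genes fell by limma, but all 40 were lower in torpor and 37 had an unadjusted p under 0.05, against 9.71% of all genes tested. The median was -1.37, and 38 of 40 lay lower without overlap, against 26.0% of all genes. BIRC5, a subunit of the complex that aligns chromosomes, stood at 151 and 265 in summer and 58.1 and 55.7 in torpor, and its partner kinase AURKB at 29.9 and 41.9 against 9.27 and 9.90 (adjusted p = 0.0596 and 0.0633). CCNB1, the mitotic cyclin, stood at 54.6 and 92.2 against 26.2 and 20.8 (adjusted p = 0.0857). Torpor did not hold the lowest levels of the series: BIRC5 was at 24.8 to 37.5 and AURKB at 3.60 to 6.59 in the rewarmed libraries. The proliferation marker MKI67 had a log2 difference of -1.50 (adjusted p = 0.216). The direction of the list was the same in each fit without 1 of the 4 libraries, with 40 of 40 lower and medians of -0.96 to -1.74. The median was -1.74 without summer active 1 and -0.96 without summer active 2.

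S-phase genes, which copy DNA, had 33 of 35 lower, a median of -0.76 and none past the test. Of these 35, 16 were lower and 0 higher at an unadjusted p under 0.05, against 9.71% and 6.28% of all genes. RRM2, which makes DNA building blocks, stood at 64.6 and 140.0 against 18.5 and 15.9, and the helicase subunit MCM3 at 49.8 and 78.2 against 28.1 and 21.8 (adjusted p = 0.0751 and 0.132). GINS3, another part of the helicase, stood at 9.38 and 11.5 against 3.73 and 2.75 (adjusted p = 0.0685). The median was -1.21 without summer active 1 and -0.39 without summer active 2. All 40 mitosis and 35 S-phase genes tested were higher in summer active 2 than in summer active 1, and so were 21 of the 23 red cell genes that fell. So were 57 of 71 genes of the whole red cell list, 73 of 74 ribosomal protein, 23 of 25 DNA repair and 22 of 27 B-cell genes. Macrophage genes lay the other way, with 1 of 24 higher in summer active 2. The share over all tested genes was not counted. Dividing B cells and red cell precursors both use these genes, and which cells the RNA came from was not tested.

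**Figure D3:**
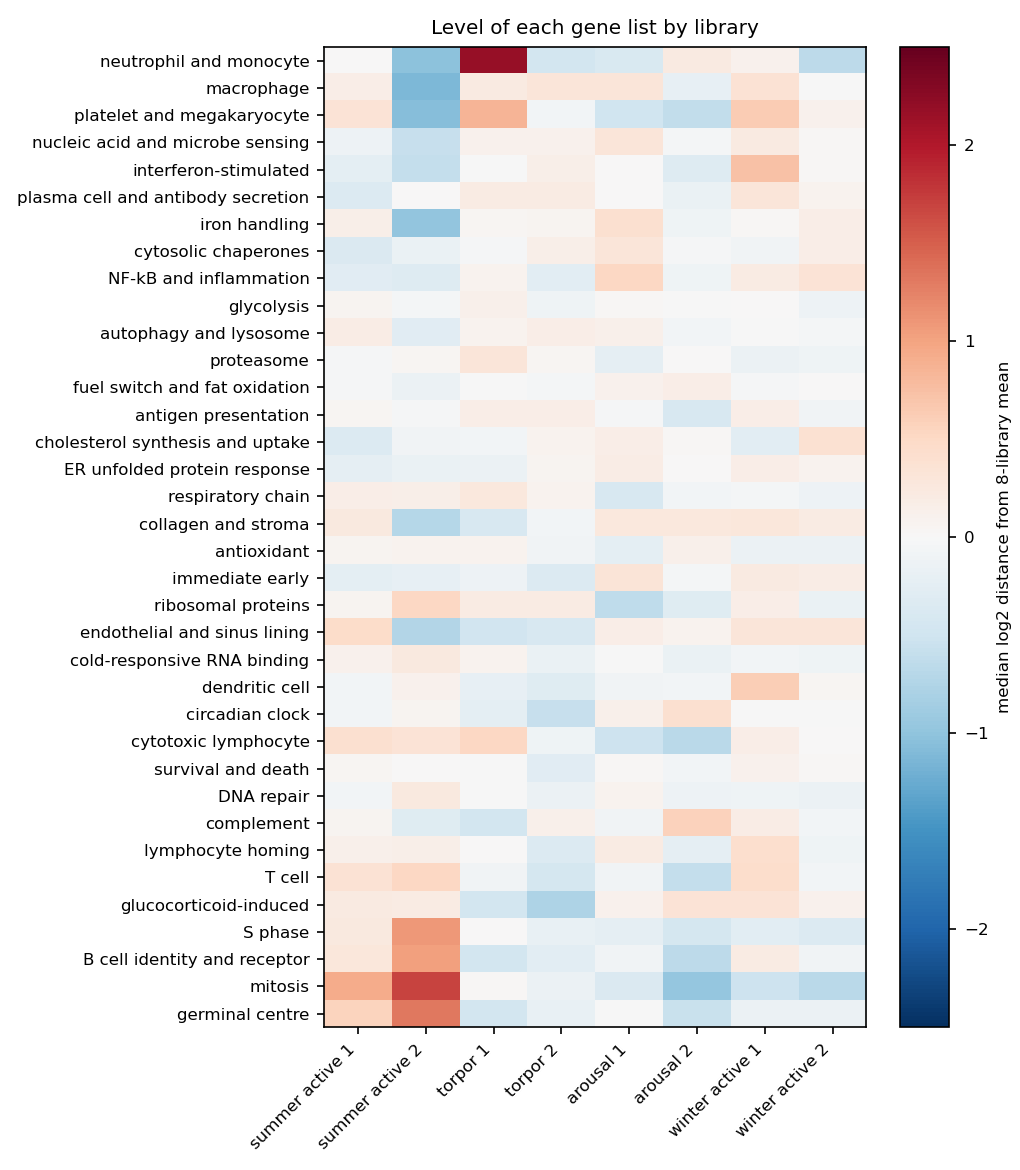
Level of each gene list in each library, as the median over members of the log2 distance from the gene's 8-library mean; red is higher and blue lower, and lists are ordered by their torpor minus summer difference. Mitosis genes stood at 0.93 and 1.69 in the summer libraries and at 0.037 and -0.14 in torpor, and neutrophil genes at 2.18 in torpor 1 against -0.46 in torpor 2.

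Several falls outside the red cell list were of genes that red cells or their precursors are known to hold in quantity. PRDX2 (NCBI gene 117038280), a peroxide-removing enzyme abundant in red cells, stood at 305 and 595 in summer against 95.01 and 85.9 in torpor, a fall in which summer active 2 was the higher summer library (log2 difference -2.23, SE 0.31, adjusted p = 0.0337). FN3K, which repairs sugar-damaged proteins, stood at 34.6 and 69.9 against 4.37 and 1.32 and fell (log2 difference -3.83, SE 0.52, adjusted p = 0.0309). UBE2O, the ubiquitin enzyme that clears ribosomes from maturing red cells, fell from 46.7 and 52.9 to 11.2 and 12.4 (log2 difference -1.99, SE 0.24, adjusted p = 0.0229). RBM38, an RNA-binding protein of late red cell maturation, fell from 160.1 and 214 to 43.7 and 32.8, and GLRX5, which serves iron-sulfur cluster assembly, from 232 and 274 to 82.4 and 57.7 (adjusted p = 0.0190 and 0.0211). BCL2L1, the survival protein BCL-xL that red cell precursors need, fell from 118 and 94.7 to 45.1 and 36.7 (log2 difference -1.36, SE 0.20, adjusted p = 0.0453). The summed level of the red cell list, 71 genes tested, was 9135 and 13406 in summer and 1472 and 1559 in torpor. That sum leaves out the pair of highest genes, known by locus number only. The pair summed to 241415 and 264868 in summer and 13956 and 19245 in torpor. How far the loss of red cell RNA moved the falls named in this paragraph was not tested.

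Other falls were of genes of varied function, and the part of red cells in them was not tested. Of the 34 falls with a symbol outside the red cell list, 25 were higher in summer active 2 than in summer active 1. The same held for 21 of the 23 red cell genes that fell, for 18 of 24 cytosolic chaperones and for 73 of 74 ribosomal protein genes, but for only 1 of 24 macrophage genes. No share over all tested genes was counted for this order. NRN1L, a relative of a nerve growth protein, fell from 172 and 253 to 28.3 and 8.94, and NME4, a mitochondrial nucleotide kinase, from 34.9 and 55.3 to 2.72 and 2.92 (log2 differences -3.62 and -3.56, adjusted p = 0.0339 and 0.00480). PCTP, which carries phosphatidylcholine, fell from 78.1 and 122 to 8.38 and 13.4, and DHRS11, a steroid-converting reductase, from 56.5 and 115 to 8.09 and 9.72 (adjusted p = 0.0236 and 0.0229). PAQR5, a membrane progesterone receptor, stood at 9.26 and 19.1 against 0.549 and 0.952 (log2 difference -3.05, adjusted p = 0.0211). The kinase gene MAST2 fell by 2.51 on the log2 scale, the chloride channel gene CLCN2 by 2.42 and the water and glycerol channel gene AQP3 by 2.10 (adjusted p = 0.00936, 0.0472 and 0.0337). The remaining falls with a symbol, past the 20 largest, lay between -1.89 and -1.19: MGLL, STRADB, SMOX, SPOCK2, CDIP1, ASB1, TP53BP2, DNAJB2, TMEM200B, TRAF4, ARRDC2 and FBXW4, besides GLRX5 and BCL2L1.

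Of antiviral defence genes STING1 rose and RSAD2 fell. STING1 (NCBI gene 117016402), the adaptor that relays sensing of DNA in the cytosol, stood at 6.92 and 8.38 in summer and 33.2 and 29.5 in torpor, both torpor values above both summer values. It rose (log2 difference 1.91, SE 0.25, adjusted p = 0.0309), and the rewarmed libraries stood at 18.1 to 28.7, also above summer. RSAD2 (NCBI gene 117033328), the interferon-induced antiviral enzyme viperin, stood at 29.1 and 56.2 in summer and 1.12 and 1.48 in torpor and fell (log2 difference -4.18, SE 0.61, adjusted p = 0.0428). The other November libraries were low as well at 1.79 and 1.22 in arousal and 9.25 and 1.69 in the winter active state, of which winter active 1 was the highest. STING1 lost its call in 7 and RSAD2 in 12 of 20 alternatives.

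The list of sensors of nucleic acids and microbes had 24 of 32 members higher, a median of 0.53 and 1 rise, STING1. IFIH1, a sensor of long double-stranded RNA, stood at 8.62 and 7.84 in summer against 15.5 and 19.2 in torpor, and TLR7, an endosomal RNA receptor, at 12.4 and 10.6 against 20.5 and 18.7 (adjusted p = 0.169 and 0.275). MYD88, the adaptor of most Toll-like receptors, stood at 39.1 and 24.5 against 57.6 and 57.8 (adjusted p = 0.216). Of 39 interferon-stimulated genes 30 were higher and 9 lower, with a median of 0.46, and RSAD2 alone passed the test. Of these 39, 10 were higher and 2 lower at an unadjusted p under 0.05, against 6.28% and 9.71% of all genes. IFIT2 and OASL, both antiviral effectors, were higher in both torpor libraries: IFIT2 at 5.89 and 4.96 in summer against 31.8 and 12.5 in torpor, OASL at 9.31 and 5.66 against 22.7 and 28.8 (adjusted p = 0.146 and 0.169). ISG20, an RNA-degrading effector, lay on the side of RSAD2 at 132 and 287 against 51.2 and 49.6 (adjusted p = 0.139). The regulator IRF7 stood at 49.9 and 26.8 in summer against 72.2 and 97.1 in torpor (adjusted p = 0.217). Without summer active 2 the sensing median was 0.20 with no rise, and the interferon median 0.27; without summer active 1 the sensing median was 0.80.

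H1-4 (NCBI gene 117015308), a linker histone that binds between nucleosomes, stood at 1.86 and 1.08 in summer and 24.2 and 12.96 in torpor, and rose (log2 difference 2.94, SE 0.37, adjusted p = 0.0248). Arousal libraries lay between at 7.87 and 6.58, and winter active libraries near the summer level, 0.846 and 1.79. Against the rewarmed states the difference was 2.12 (unadjusted p = 0.000270, adjusted p = 0.110), so the threshold was missed. Of 8 linker histones sought, 3 were in the table and H1-4 alone was high enough to test. Histone genes have near-identical copies that can share reads, and most of their messages lack the tail by which many library methods select RNA, so the value of H1-4 is uncertain.

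STEAP1 (NCBI gene 117012463), a membrane protein of the metalloreductase family that handles iron and copper, stood at 7.69 and 7.27 in summer and 37.8 and 57.3 in torpor. It rose (log2 difference 2.49, SE 0.32, adjusted p = 0.0282), and the rewarmed libraries were alike high at 25.7 to 45.5. In the iron handling list 16 of 23 members were higher, with a median of 0.37 that was -0.0061 without summer active 2 and 1.14 without summer active 1. FTH1, a chain of the iron store ferritin, stood at 7763 and 4797 against 14274 and 13788, and SLC40A1, the iron exporter, at 533 and 316 against 536 and 1017 (adjusted p = 0.203 and 0.352). NCOA4, which hands ferritin over for breakdown, lay lower at 79.7 and 94.2 against 39.04 and 32.1, and HMOX1, which opens the heme ring, stood at 1408 and 393 against 1579 and 2316 (adjusted p = 0.0675 and 0.387). In FTH1, SLC40A1 and HMOX1 summer active 2 held the lowest of the 4 values, as it did over macrophage genes, of which these are known products.

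STAG3 (NCBI gene 117024456), a cohesin subunit best known from meiosis, stood at 3.75 and 2.31 in summer and 16.6 and 23.4 in torpor and rose (log2 difference 2.39, SE 0.33, adjusted p = 0.0333). LPCAT2, an enzyme that makes the inflammatory lipid platelet-activating factor, stood at 13.1 and 11.2 against 28.4 and 36.6 and rose (log2 difference 1.35, SE 0.20, adjusted p = 0.0472). The rewarmed libraries stood at 29.6 to 35.01, within the range of the torpor values. CLPSL2, a relative of the pancreatic cofactor colipase, was listed at 0 in both summer libraries and at 7.97 and 5.04 in torpor (adjusted p = 0.0229). It was at 3.48 to 6.93 in the rewarmed libraries, where the pancreatic list ran from 39.2 to 1129. The other 4 rises are known by locus number only. LOC117015256 stood at 19.4 and 12.4 in summer and 186 and 109 in torpor (log2 difference 3.12, SE 0.46, adjusted p = 0.0437). LOC117022872 was near 0 in both summer libraries, at 11.8 and 37.1 in torpor and at 26.98 to 75.8 in the rewarmed libraries (adjusted p = 0.0309). LOC117024588 and LOC117024590 had log2 differences of 3.37 and 3.52.

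Single lymphocyte receptors, CXCR4, CXCR5, S1PR1 and IL7R, were lowest in torpor, below summer and below the rewarmed November libraries. None passed the test, and IL7R was chosen after its values were seen. CXCR4, which holds cells in marrow and follicles, stood at 112 and 153 in summer, 41.1 and 10.3 in torpor and 63.4 to 85.7 in the rewarmed libraries (log2 difference from summer -2.59, adjusted p = 0.101). CXCR5, which draws B cells and helper T cells into follicles, stood at 14.8 and 32.6 in summer, 10.8 and 4.64 in torpor and 23.7 to 51.2 in the rewarmed libraries. Its difference from summer was -1.50 and from the rewarmed states -2.20 (adjusted p = 0.237 and 0.112). S1PR1, the receptor for leaving lymphoid tissue, stood at 19.01 and 21.2 in summer and 12.5 and 6.58 in torpor against 18.1 to 27.1 after rewarming, and the cytokine receptor IL7R at 16.5 and 34.9 in summer and 10.9 and 7.73 in torpor against 18.5 to 30.9. In each of these genes torpor 2 had the lowest of all 8 values. CCR7, which serves entry to lymphoid tissue, did not share this order and stood at 23.1 and 46.2 in summer and 28.9 and 17.9 in torpor (adjusted p = 0.616). Over the whole homing list 13 of 18 were lower, with a median of -0.37, which was -0.019 with equal column totals, -0.14 without summer active 1, -0.88 without torpor 1 and -0.16 without torpor 2. None of the 18 passed by limma. At an unadjusted p under 0.05, 1 was higher and 5 lower, against 6.28% and 9.71% of all genes. Against the rewarmed libraries 4 of the 18 lay lower without overlap and 0 higher. Of all genes, 20.1% lay lower and 12.5% higher in that way, so the share of the list that lay lower was near that of all genes.

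Some genes that glucocorticoid hormones induce in many tissues also had their lowest values in torpor. Of 21 tested, 17 were lower in torpor than in summer, with a median of -0.67, and none passed by limma. At an unadjusted p under 0.05, 9 were lower and 0 higher, against 9.71% and 6.28% of all genes. PIK3R1, a regulatory subunit of the insulin-activated lipid kinase, stood at 61.3 and 58.2 in summer, 30.02 and 30.4 in torpor and 52.9 to 63.8 after rewarming. Summer and rewarmed values overlapped, and both torpor values, close to each other, lay below them. Its difference from summer was -0.96 and from the rewarmed states -0.96 (adjusted p = 0.0709 and 0.110). FAM107A, an actin-binding stress protein, stood at 22.1 and 20.7 in summer, 8.40 and 9.80 in torpor and 17.5 to 26.01 after rewarming (adjusted p against summer 0.0882). Among transcription factors that are hormone targets, KLF9 stood at 16.03 and 23.3 in summer against 4.78 and 3.24 in torpor, KLF15 at 23.6 and 22.7 against 3.52 and 2.36 and ZBTB16 at 8.60 and 13.7 against 2.12 and 2.24 (adjusted p = 0.121, 0.150 and 0.147). KLF15 was also low in arousal 1 at 4.46, against 18.00 and 20.5 in the winter active libraries. FKBP5, a chaperone of the receptor, stood at 185 and 112 in summer and 91.4 and 95.98 in torpor (adjusted p = 0.314). TSC22D3, another common target, was split in torpor, at 275 and 123 against 249 and 263 in summer, and its difference of -0.47 turned to 0.10 without torpor 2.

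**Figure D4:**
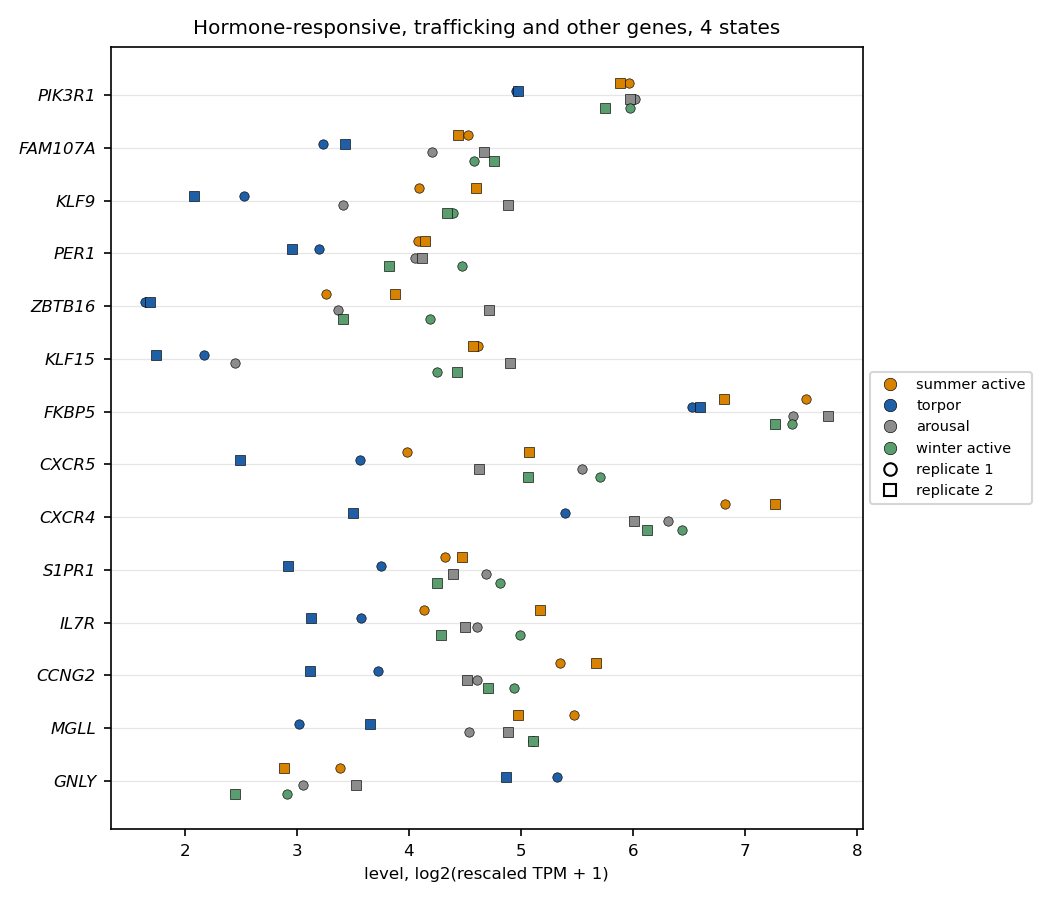
Level of 14 genes in each of the 8 libraries, on the horizontal axis as log2(rescaled TPM + 1), with colours and symbols as in the plot of rises and falls. In all rows but GNLY both blue torpor points lie left of both orange summer points and of the grey and green rewarmed points, as in PIK3R1 with 30.02 and 30.4 in torpor against 61.3 and 58.2 in summer; in GNLY they lie to the right.

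The called falls held a few genes with this order of states. CCNG2 stood at 23.4 and 21.9 in arousal and 29.6 and 25.2 in the winter active libraries, between its torpor and summer values (difference from the rewarmed states -1.27, unadjusted p = 0.000609, adjusted p = 0.110). MGLL, the lipase that frees the last fatty acid of stored fat, stood at 43.4 and 30.4 in summer, 7.12 and 11.6 in torpor and 22.2 to 33.5 after rewarming. It fell against summer (log2 difference -1.89, SE 0.29, adjusted p = 0.0472) and missed the threshold against the rewarmed states (-1.57, adjusted p = 0.110). SPOCK2, a matrix proteoglycan, fell from 124 and 159.9 to 38.3 and 41.9 (log2 difference -1.79, SE 0.20, adjusted p = 0.0169), with 57.98 to 77.4 after rewarming. No gene passed against the rewarmed states by limma, while 840 higher (6.20%) and 1810 lower (13.4%) had an unadjusted p under 0.05, and 12.5% lay higher and 20.1% lower without overlap. Both comparisons use the same torpor libraries. With columns set to equal totals, 288 genes passed against the rewarmed states.

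No clock or cold-response gene passed the test. In the clock list 17 of 22 were lower, with a median of -0.27. At an unadjusted p under 0.05, 4 were lower and 0 higher, against 9.71% and 6.28% of all genes. PER1, a light- and hormone-responsive clock gene, stood at 15.97 and 16.7 in summer, 8.15 and 6.78 in torpor and 13.1 to 21.2 after rewarming, and NR1D1, a clock repressor, at 51.4 and 56.8 in summer, 23.01 and 30.96 in torpor and 11.8 to 22.6 after rewarming (adjusted p = 0.146 and 0.192). The sources used here do not name the hour of sampling. CIRBP and RBM3, RNA-binding proteins, are induced by mild cooling: CIRBP stood at 440.3 and 369 in summer against 385 and 301 in torpor, and RBM3 at 553 and 889.9 against 498 and 462 (adjusted p = 0.624 and 0.402). The CIRBP difference of -0.24 turned to 0.15 with equal column totals. HNRNPDL, a splicing factor of the same list, stood at 334 and 324 against 139 and 164 (adjusted p = 0.141). With equal column totals 13 of 22 clock genes were higher, with a median of 0.095. Clock medians were -0.45 without summer active 1, -0.46 without torpor 1 and -0.17 without torpor 2.

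Single regulators of fuel choice lay in both directions, and no member of the fuel or glycolysis lists passed by limma. Of their 28 and 22 members, 2 were higher and 6 lower at an unadjusted p under 0.05. The shares of all genes were 6.28% and 9.71%. PDK4 and PDK3, kinases that close pyruvate dehydrogenase and so spare glucose, stood as follows: PDK4 at 32.5 and 49.7 in summer against 81.7 and 67.9 in torpor, and PDK3 at 7.24 and 7.29 against 14.96 and 12.3. PDK2, another such kinase, stood at 74.6 and 58.6 against 33.6 and 39.3, and PDP2, the phosphatase that reopens the enzyme, at 5.69 and 6.24 against 2.36 and 1.49. None of the 4 passed (adjusted p = 0.213, 0.167, 0.146 and 0.104). PDP2 was at 7.03 to 10.1 after rewarming, a difference from torpor of -1.69 with an adjusted p of 0.0987, the smallest of that comparison and one several genes share. Over the fuel list 16 of 28 were higher, with a median of 0.14. In glycolysis 13 of 22 were higher, and ALDOC, an aldolase, stood at 8.64 and 10.96 against 2.33 and 2.62 (adjusted p = 0.0596). Respiratory chain genes had 31 of 55 higher, proteasome genes 26 of 33 and ribosomal protein genes 22 of 74, with medians of 0.036, 0.14 and -0.12. With equal column totals 53 of 55, 33 of 33 and 71 of 74 were higher, with medians of 0.43, 0.53 and 0.28, so the ribosomal list turned from mostly lower to mostly higher. It also turned without summer active 2, with 59 of 74 higher, and respiratory chain genes without summer active 1 (25 of 55 higher) and without torpor 1 (23 of 55), as did proteasome genes without torpor 1 (16 of 33). No member of these 3 lists passed by limma. At an unadjusted p under 0.05, 5 were higher and 1 lower, against 6.28% and 9.71% of all genes.

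Antioxidant genes split, with 13 of 28 higher and 15 lower, a median of -0.016 and 1 fall, PRDX2. With equal column totals 19 of 28 were higher, with a median of 0.33 and no fall. GPX1, a selenium peroxidase abundant in blood cells, stood at 3624 and 4064 in summer and 1463 and 1012 in torpor, and NQO1, a quinone reductase, at 15.7 and 21.2 against 4.64 and 4.26 (adjusted p = 0.0709 and 0.0685). Of survival and death genes 18 of 27 were lower, with a median of -0.29 and 1 fall, BCL2L1, but with equal column totals 17 of 27 were higher, with a median of 0.095 and no fall. The death promoter BMF stood at 47.04 and 36.9 in summer against 15.1 and 18.5 in torpor, PMAIP1 at 9.77 and 16.5 against 4.62 and 3.27, and the lymphocyte survival gene BCL2 at 20.4 and 27.4 against 11.8 and 10.2 (adjusted p = 0.0627, 0.0912 and 0.144). BCL2A1, a survival gene of myeloid cells, lay higher at 75.2 and 51.9 against 124 and 139 (adjusted p = 0.205).

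The lists not described above had no member past the test by limma. Platelet and megakaryocyte genes had 14 of 17 higher, with a median of 0.63 that was -0.014 without summer active 2 and 1.38 without summer active 1. Cytosolic chaperones, which fold proteins, had 20 of 24 higher with a median of 0.25. Inflammatory NF-kB genes (0.21), antigen presentation (0.12), cholesterol synthesis (0.11) and muscle (0.37) had medians that stayed above 0 with equal column totals and without each of the 4 libraries in turn. Other medians turned sign. That of autophagy and lysosome genes (0.14) stood at -0.0095 without summer active 2, that of the unfolded protein response (0.098) at -0.0028 without torpor 2, and that of stroma (0.027) at -0.39 and -0.14 without them. Immediate early genes (-0.024) stood at 0.31 with equal totals, 0.04 without summer active 2 and 0.076 without torpor 2. Complement genes (-0.36) turned to 0.033 with equal totals, 0.34 without summer active 1 and 0.04 without torpor 1. The endothelium and sinus lining (-0.23) turned to 0.16 with equal totals and 0.44 without summer active 1, and stood at -0.91 without summer active 2. With equal totals DNA repair (-0.29) turned to 0.091, dendritic cells (-0.25) to 0.077 and cold-responsive RNA-binding proteins (-0.24) to 0.15. Without summer active 2 DNA repair stood at -0.038 and dendritic cells at -0.062, and without torpor 2 the cold-responsive list at -0.064. Across these 15 lists, 25 of 314 members were higher and 23 lower at an unadjusted p under 0.05, where all tested genes gave 6.28% and 9.71%.

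Macrophage genes were higher in torpor by an amount that turned on 1 summer library. Of 24 tested, 21 were higher, with a median of 0.79 and none past the test. At an unadjusted p under 0.05, 4 were higher and 0 lower, against 6.28% and 9.71% of all genes. C1QA, a chain of the complement starter C1q, stood at 4418 and 1488 in summer and 7835 and 7117 in torpor, and VCAM1 at the levels given above (adjusted p = 0.201 and 0.191). Without summer active 2 the median was 0.20 with 15 of 24 higher, and without summer active 1 it was 1.26 with 24 of 24 higher. Neutrophil and monocyte genes had 16 of 17 higher and a median of 1.11, which was -0.16 without torpor 1, 2.46 without torpor 2 and 0.73 without summer active 2. Their summed level was 2986 and 2898 in summer and 14792 and 1997 in torpor. None passed by limma (3 higher and 0 lower at an unadjusted p under 0.05, against 6.28% and 9.71% of all genes).

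Of the markers of neighbouring tissues, the summed pancreatic and adipocyte levels did not overlap between the states, while the hepatocyte and epithelial sums did. The summed level of 14 pancreatic genes was 32.6 and 24.6 in summer and 2036 and 449.9 in torpor, and that of the rewarmed libraries 39.2 to 1129. All 14 were higher in torpor and none passed by limma. At an unadjusted p under 0.05, 13 were higher and 0 lower, against 6.28% and 9.71% of all genes. CTRC, a digestive enzyme, stood at 4.66 and 2.19 in summer against 363 and 81.4 in torpor. Hepatocyte genes summed to 3598 and 65.96 in summer and 1190.3 and 122 in torpor, their median of -0.69 turning to 2.42 without summer active 1 and to 0.76 without torpor 2, and standing at -3.30 without summer active 2 and -1.99 without torpor 1. Squamous and gastric genes summed to 209 and 1904 in summer and 508 and 928 in torpor, and the keratin KRT8 stood at 26.5 and 51.8 against 139 and 227 (adjusted p = 0.227). Adipocyte genes summed to 1867 and 2135 in summer and 3556 and 3065 in torpor, with the fat droplet gene CIDEA at 3.69 and 4.34 against 38.5 and 33.3 (adjusted p = 0.191). The part of these tissues in the rises and falls was not tested. With their lists left out and the columns set to equal totals, 25 genes rose and 39 fell, 49 of them among the 76.

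**Figure D5:**
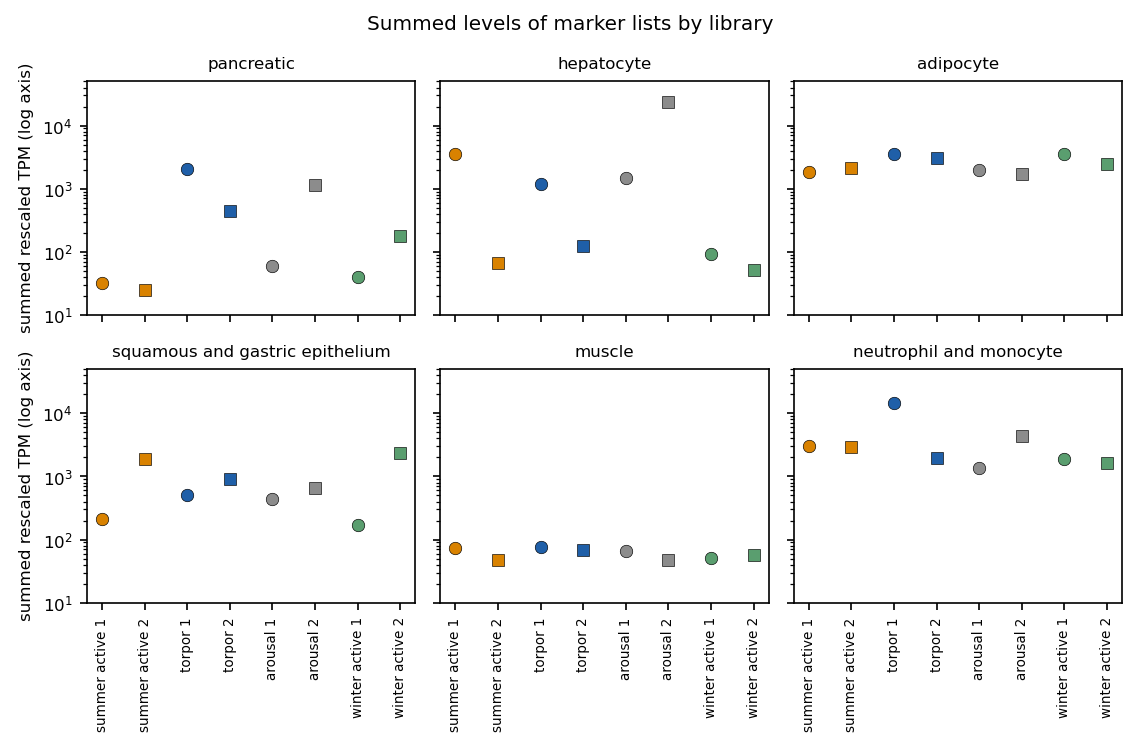
Summed rescaled TPM of the genes of 5 other-tissue lists and of the neutrophil and monocyte list in each library, on log axes of the same range; colours and symbols are as in the plot of rises and falls. Pancreatic genes are higher in both torpor libraries (2036 and 449.9) than in both summer libraries (32.6 and 24.6), whereas the hepatocyte, epithelial and neutrophil lists are each high in 1 library of a pair.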

How the data were processed

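Libraries were made from total RNA of whole spleen with Illumina protocols, per the labels. kallisto 0.46.2 and sleuth 0.30.0 stand in the submitters' processing notes; no source used here names the transcriptome, or how transcripts were summed to genes and rescaled. The authors deposited 1 signal value per gene and library: TPM after rescaling, with column sums of 745098 to 1331819.8 rather than 1000000. The test planned for TPM was kept. Without counts the depth is unknown, so no interval covers counting error. All 19652 identifiers matched the RefSeq annotation of mRhiFer1_v1.p, 3335 of them with a locus number only; no sequence was used.

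Genes with an 8-library mean of 1 or more entered limma 3.58.1 (R 4.3.3; lmFit, contrasts, eBayes with a trend) as log2(value + 1). All 8 libraries shared 1 fit, with 4 residual and 3.29 prior degrees of freedom, and the script was tested on simulated data. Torpor was also set against the mean of arousal and winter active. The comparison and the 43 gene lists were chosen with earlier results of these data known. The genes named were up to 12 rises and 20 falls by size (with a symbol, without overlap, and averaging 2 or more in the higher state), the 2 members of each list with the smallest p, a short set of fixed genes, and SLC4A1; a few of these are not reported here. Other genes, such as KLF9, IL7R, MGLL and those with locus numbers, were chosen after their values were seen. The alternatives were other scalings (equal totals, median ratios, quantiles), lists left out (red cell, other tissue), another pseudocount (0.1), other filters (none, or 5), robust eBayes, a block for replicate number, a fit of the 4 libraries alone, and each library left out in turn, where the lone library is taken to vary as the others do. The red cell list was also left out with the pair of highest genes, an alternative chosen after seeing the data.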

Additional observations from a re-analysis of the deposited data

How the results depend on the processing

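The 10 rises and 66 falls were 20 and 36 with columns set to equal totals, and 0 and 11 (11 in all) with only the 4 libraries compared. Equal totals together with other-tissue lists left out gave 25 and 39, with the red cell list left out 4 and 9 (13 in all), and with the pair of highest genes left out as well 6 and 19 (25 in all). The genes left out cannot be called there: of 53 calls outside the red cell list, 13 and 25 remained. Leaving out 1 library gave 9 to 312 calls, 0 to 63 higher and 9 to 249 lower. Torpor against the rewarmed states gave 0 genes, but 288, 310 and 526 in the 3 rescalings to equal totals and 3 with no filter. Of the 43 genes with a call that are named, 40 lost it without summer active 2, 35 without torpor 1, 41 without torpor 2, 32 without either winter active library, 24 and 21 without arousal 1 and 2 and 6 without summer active 1, with adjusted p up to 0.26; robust eBayes lost none. No named gene with a call turned sign. Signs of genes without a call turned for CIRBP (0.15, 0.14 and 0.16) and MYC (0.31, 0.30 and 0.31) in the 3 rescalings, and for MYC also with the highest genes left out (0.018). Over the fits without 1 library GPX3 ranged from -2.45 to 0.46 and TAT from -4.84 to 0.050, each turning without summer active 1, and TSC22D3 from -1.05 to 0.10, turning without torpor 2. The causes were not tested. With a replicate block 85 genes passed, 11 higher and 74 lower. The labels do not say whether replicate numbers pair the libraries. Deviations of same-numbered libraries correlated at -0.19 to 0.32 between states, and at 0.28 between summer active and torpor. With 2 libraries a state these values cannot settle it. The table gives no depth, so what depth limits is unknown.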

Other observations

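Neighbours of some rises and falls in the annotation were looked up after their values were seen. Within 8 genes on each side of H1-4, 7 neighbours were tested, and 5 of them, known by locus number, lay higher in torpor without overlap, against 20.4% of all tested genes. The 3 with the smallest p were LOC117015314 at 6.03 and 2.04 in summer and 29.5 and 10.6 in torpor, LOC117015342 at 6.55 and 4.09 against 26.7 and 13.1, and LOC117015317 at 2.58 and 2.32 against 12.3 and 6.43. The unadjusted p-values of these 3 were 0.00623, 0.00309 and 0.0243, and no neighbour passed. HFE, the iron sensor gene of the same stretch, stood at 55.5 and 25.1 against 25.4 and 32.1.

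The rises LOC117024588 and LOC117024590 lie near each other, with 1 gene between them, near SELENOP, a selenium carrier, which stood at 1775 and 1486 in summer and 2752 and 3326 in torpor. LOC117024588 stood at 0 and 0.342 in summer, 12.5 and 9.59 in torpor, 3.66 and 1.22 in arousal and 0 and 0.276 in the winter active state. LOC117024590 stood at 0.734 and 0.342 in summer, 14.6 and 18.6 in torpor, 9.62 and 3.65 in arousal and 0.168 and 0.276 in the winter active state. Both share the order of H1-4, with arousal between torpor and the low winter active and summer values.

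CMPK2, an interferon-induced nucleotide kinase gene next to RSAD2, stood at 5.86 and 4.19 in summer and 6.89 and 7.56 in torpor (log2 difference 0.46, adjusted p = 0.418). RNF144A on the other side stood at 14.2 and 10.7 against 5.58 and 6.20 (log2 difference -0.96, adjusted p = 0.141).

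RPL4, a ribosomal protein gene chosen after its values were seen, stood at 32.4 and 1983 in the torpor libraries and 764 and 2447 in the summer libraries, while the 6 libraries other than torpor 1 and summer active 1 ranged from 1226 to 2447.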
